A study of Homo sapiens with 16 samples.

Results

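The integrated stress response and the unfolded protein response were examined through 38 genes, chosen by symbol as ATF4 targets, endoplasmic reticulum (ER) chaperones and unfolded protein response genes, out of 59428 genes in the count table. All 38 symbols were found. The members comprised 5 transcription factors, 5 stress effectors and feedback genes, 6 enzymes of asparagine and serine one-carbon metabolism, 3 amino acid transporters, 4 sensors of the unfolded protein response with the factors they activate, 12 ER chaperones and folding factors and 3 genes of ER-associated degradation.

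The study asked how the PARP inhibitor olaparib changes the transcriptome of ovarian carcinoma cells with and without working BRCA1. OVCAR3, a serous ovarian carcinoma line with wild-type BRCA1, was exposed for 96 h to 7.5 µM olaparib dissolved in DMSO or to DMSO alone. UWB1.289, a serous ovarian carcinoma line with mutated BRCA1, was exposed for 96 h to 3.5 µM olaparib or to DMSO. Each of the 4 groups held 4 libraries made from total RNA with a QuantSeq 3' kit, which yields reads from the 3' end of polyadenylated transcripts. The dose was the IC50 for 96 h determined in each line. OVCAR3 was grown in RPMI1640 with more serum and with insulin, UWB1.289 in a mixture of MEGM Bulletkit medium and RPMI1640. Each BRCA1 status is represented by 1 line, so BRCA1 status, line, medium and dose cannot be told apart. The series' description states that treatment and harvest were done 4 times, and replicates 1 to 4 carry the marks E1 to E4 in every group. Whether cultures were started separately for each repeat, and whether the same repeat of both lines ran together, is not stated, and the p-values measure the spread between these 4 repeats.

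Library totals ranged from 5599571 to 7730228 counts, and the 38 genes held 0.624 to 0.821% of them. Levels are given in CPM (counts scaled to a common library size, TMM factors over all 16 libraries), as mean ± SD with n = 4, and differences in log2 units. A gene passed when its adjusted p was below 0.1 over all genes tested (edgeR quasi-likelihood test). The 8 epithelial and serous markers summed to 4064 to 4317 CPM in OVCAR3 with DMSO, 2585 to 2832 with olaparib, 7379 to 7989 in UWB1.289 with DMSO and 5793 to 7127 with olaparib. WT1 was at 0 in the UWB1.289 libraries with DMSO. Of 5 leukocyte markers, CD3E and MS4A1 were at 0 in UWB1.289 and the list summed to at most 18.1 CPM in any library, 13.6 to 18.1 with olaparib against 7.64 to 10.7 with DMSO, with CD14 higher (2.43-fold, adjusted p = 0.00374). The 6 fibroblast markers summed to 22.2 to 72.2 CPM, with LUM at 0 in every group, and the 4 endothelial markers to at most 11.5 CPM. The part of these marker differences in the results was not tested. CPM are shares of a bulk library, so a lower share of cells that express a gene and less of its RNA per cell cannot be told apart.

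Both responses are ways in which cells answer a shortage or damage in protein production. In the integrated stress response, kinases such as PERK (EIF2AK3) phosphorylate the initiation factor eIF2, which slows general translation and favours translation of the ATF4 mRNA. ATF4 protein, with partners of the C/EBP family, then raises genes for amino acid synthesis, amino acid uptake and feedback. In the unfolded protein response, the ER membrane proteins PERK, IRE1 (ERN1) and ATF6 sense misfolded protein, IRE1 splices the XBP1 mRNA, and cleaved ATF6 and spliced XBP1 raise chaperones and degradation factors. Counts of 3' ends show mRNA abundance, and XBP1 splicing, ATF6 cleavage, eIF2 phosphorylation and ATF4 translation were not measured.

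The factors of both responses bind short DNA elements, which are shown for some of the members that hold them. RefSeq promoter sequences on GRCh38.p14, from 250 bases before to 50 bases after each start, were matched for 36 of 38 members (not for PSPH and SHMT2). The ER stress element was searched on both strands as CCAAT and CCACG separated by 9 bases. It was present at 7 of 36 members (19.4%: CALR, CANX, CRELD2, HSP90B1, HSPA5, PDIA6 and XBP1), against 0.0916% of the 27305 genes of the table. The 4 members below are printed 5′ to 3′ on the strand of the gene, with the fixed letters of the element in capitals, at chr22:28800597-28800627 (XBP1), chr9:125241385-125241415 (HSPA5), chr2:10812847-10812877 (PDIA6) and chr12:103930210-103930240 (HSP90B1).
XBP1: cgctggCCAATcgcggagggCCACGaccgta
HSPA5: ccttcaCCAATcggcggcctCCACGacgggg
PDIA6: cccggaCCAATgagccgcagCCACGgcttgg
HSP90B1: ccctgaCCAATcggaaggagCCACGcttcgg

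A second form of the element, ERSE-II, was searched on both strands as ATTGG and CCACG separated by 1 base, and was found at 3 of 36 members (8.33%: HERPUD1, HYOU1 and SDF2L1), against 0.0696% of all genes. The HYOU1 promoter held it 2 times in the reverse direction, and the first of these overlaps a match to the unfolded protein response element TGACGTGG, which occurred at 0.927% of all genes. The stretches are shown because these 3 genes differed between the lines. HYOU1 (chr11:119057265-119057405) and HERPUD1 (chr16:56931957-56932042) are printed on the strand of the gene and SDF2L1 (chr22:21642104-21642134) on the opposite strand, with all element letters in capitals, including in HERPUD1 a reverse match to the C/EBP-ATF element TGATGNAAN.
HYOU1: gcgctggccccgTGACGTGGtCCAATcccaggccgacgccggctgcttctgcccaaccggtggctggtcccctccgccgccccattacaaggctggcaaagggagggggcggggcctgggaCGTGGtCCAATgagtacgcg
HERPUD1: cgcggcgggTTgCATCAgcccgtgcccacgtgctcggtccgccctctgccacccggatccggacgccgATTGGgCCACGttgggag
SDF2L1: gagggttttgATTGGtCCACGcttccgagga

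The C/EBP-ATF element, to which ATF4 binds with a C/EBP partner, was searched as TGATGNAAN on both strands. It occurred at 6 of 36 members (16.7%: ASNS, CEBPG, CHAC1, HERPUD1, SLC3A2 and SLC7A1) and at 4.45% of all genes. CEBPG (chr19:33374063-33374087) and ASNS (chr7:97872460-97872484) are printed on the strand of the gene and CHAC1 (chr15:40953253-40953277) on the opposite strand. These matches describe letters in a 300-base window and say nothing of binding in these cells. The members were chosen as genes of these responses, so the contrasts of all these elements with all genes are no independent evidence.
CEBPG: gcggcgtcTGATGcAAcctgccggc
ASNS: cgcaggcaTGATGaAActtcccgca
CHAC1: ggcaggagTGATGcAAcggcagggg

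In OVCAR3, olaparib moved single genes of both responses in opposite directions, and no member moved beyond 2-fold. ATF5 and the phosphatase subunit gene PPP1R15A rose, XBP1 and the serine synthesis genes PSAT1 and PHGDH fell, and ATF4, DDIT3, TRIB3, CHAC1 and HSPA5 did not pass. Of 37 members tested, 10 passed (27%), 5 higher and 5 lower, and 31.5% of all 13031 genes tested passed (15.5% higher, 16% lower). The share of members was therefore not above the background. Their median log2 fold change was 0.03, against -0.01 over all genes. None passed the 2-fold threshold with a mean normalised count above 10, against 5.23% of all genes (2.9% higher, 2.33% lower). The count beyond 2-fold was also 0 at an unadjusted p below 0.05 and with DESeq2.

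XBP1, which encodes the transcription factor downstream of IRE1, lies at chr22:28794555-28800597. It stood at 157, 143, 152 and 175 CPM in the 4 OVCAR3 libraries with DMSO and at 94.2, 102, 104 and 93.1 CPM with olaparib. Every olaparib library was below every DMSO library. The level fell from 157 ± 13.4 to 98.4 ± 5.56 CPM, 1.59-fold lower (log2 fold change -0.67, SE 0.082, adjusted p = 5.22e-06). ATF6, the gene of the sensor that is cleaved in the Golgi, stood at 51.8 ± 5.91 CPM with DMSO and 42.4 ± 5.38 with olaparib, its groups overlapped, and its fall was smaller (-0.29, adjusted p = 0.0675). The ATF6 call was lost when any of 4 libraries was left out (DMSO replicate 2 or 4, olaparib replicate 1 or 2), with adjusted p from 0.107 to 0.229. The kinase genes EIF2AK3 (0.18, adjusted p = 0.497) and ERN1 (0.01, adjusted p = 0.986) did not pass.

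Among the transcription factors of the integrated stress response, ATF5 alone passed in OVCAR3. ATF5, a factor whose mRNA is translated under stress much like that of ATF4, lies at chr19:49928702-49933935. It stood at 12.5, 10.1, 15.2 and 15.4 CPM with DMSO and at 21.4, 24.8, 19.7 and 33.8 CPM with olaparib, with no overlap. The mean rose from 13.3 ± 2.5 to 24.9 ± 6.26 CPM, 1.87-fold (0.90, SE 0.175, adjusted p = 7.2e-04). Replicate 4 was the highest of the olaparib libraries, and without it the log2 fold change was 0.71 (adjusted p = 6.37e-04). ATF4 itself, at chr22:39519695-39522683, stood at 383, 385, 391 and 365 CPM with DMSO and at 350, 330, 312 and 376 with olaparib. Its groups overlapped through olaparib replicate 4, and its difference of -0.15 (95% interval from -0.30 to -0.0024) did not pass (adjusted p = 0.133), but passed without that library at -0.20 (adjusted p = 0.0230). DDIT3, which encodes the pro-apoptotic factor CHOP, stood at 25.4 ± 3.39 and 25.8 ± 2.6 CPM (0.03, adjusted p = 0.890).

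Feedback and target genes of ATF4 did not move as a block. PPP1R15A, which encodes GADD34, the inducible subunit that brings a phosphatase to eIF2, stood at 25.2, 17.3, 23.1 and 21.5 CPM with DMSO and at 30.8, 29, 25.8 and 31.4 with olaparib, without overlap (1.35-fold, 0.43, SE 0.129, adjusted p = 0.0198). VLDLR, a lipoprotein receptor, fell from 22.1, 18.2, 19.9 and 17 CPM to 16, 10.6, 14.1 and 14.6 CPM, also without overlap (1.39-fold lower, -0.48, adjusted p = 0.0258). So 1 of these 5 genes rose and 1 fell. The remaining 3 did not pass: TRIB3, a pseudokinase that restrains ATF4, at -0.06 (adjusted p = 0.83), CHAC1, which degrades glutathione, at 0.09 (adjusted p = 0.614) and SESN2 at 0.12 (adjusted p = 0.505).

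Of the metabolic members, the first enzymes of serine synthesis fell in OVCAR3. PHGDH, which catalyses the first step, stood at 227, 243, 234 and 246 CPM with DMSO and at 179, 194, 192 and 187 with olaparib, without overlap (1.26-fold lower, -0.33, SE 0.069, adjusted p = 0.00139). PSAT1, which catalyses the next step, stood at 147, 182, 177 and 190 CPM with DMSO and at 118, 125, 151 and 75.3 with olaparib (1.48-fold lower, -0.57, adjusted p = 0.00545). The PSAT1 groups overlapped, since olaparib replicate 3 was above DMSO replicate 1. PSPH, the last enzyme of this route, did not pass (0.07, adjusted p = 0.758). The mitochondrial folate enzyme MTHFD2 (0.23, adjusted p = 0.0946) and SLC3A2, the heavy chain of amino acid exchangers (0.23, 1.17-fold, adjusted p = 0.0508), passed with overlapping groups. The SLC3A2 call was lost without DMSO replicate 1 or 3 or olaparib replicate 2 (adjusted p from 0.112 to 0.182), and the MTHFD2 call when any library but DMSO replicate 2 or olaparib replicate 4 was left out (0.117 to 0.308).

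Of 12 ER chaperone and folding genes, 1 passed in OVCAR3 (8.33%, against 31.5% of all genes), and of the 3 degradation genes none did. The gene that rose was HYOU1, a large ER chaperone of the HSP70 class, at 69.3, 60.4, 63.7 and 62.2 CPM with DMSO and 75.6, 72.7, 77.5 and 89.8 with olaparib, without overlap (1.24-fold, 0.31, SE 0.090, adjusted p = 0.0158). HSPA5, which encodes the chaperone BiP, stood at 1127, 1188, 1185 and 1136 CPM with DMSO and 1057, 1153, 1066 and 1209 with olaparib. These groups overlapped, and the 95% interval of the HSPA5 difference ran from -0.18 to 0.09 (-0.04, adjusted p = 0.682). The 27 members that did not pass in OVCAR3 lay between -0.31 and 0.30. In all, 6 members had groups without overlap (3 higher, 3 lower; 16.2% of 37), against 25.7% of all genes (12.4% higher, 13.3% lower).

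With the replicate number as a block, 7 members rose and 5 fell in OVCAR3, with CEBPB and PDIA4 added to those that rose. Over all 13031 genes, 2105 then passed higher and 2191 lower, against 2022 and 2083 without the block. Over both directions the share of members was still not above that of all genes. Single libraries also moved the OVCAR3 counts. The number of members that rose was 3 without DMSO replicate 1, DMSO replicate 3 or olaparib replicate 2, 8 without DMSO replicate 2 and 9 without olaparib replicate 4. Over all genes, 1765, 1703, 1700, 1926 and 2214 rose in these fits, in the same order, of 13238 to 13337 tested. In olaparib replicate 4 the level was the lowest of its group for 13 of 38 members and the highest for 14. The low ones included MANF, a secreted ER protein, at 97.6 CPM against 158, 166 and 165 in the other libraries, and DNAJB9, an ER co-chaperone, at 3.96 CPM against 11.6, 10.7 and 13.3. ATF5, PPP1R15A, HYOU1, VLDLR, PHGDH, PSAT1 and XBP1 passed whichever library was left out.

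**Figure D1:**
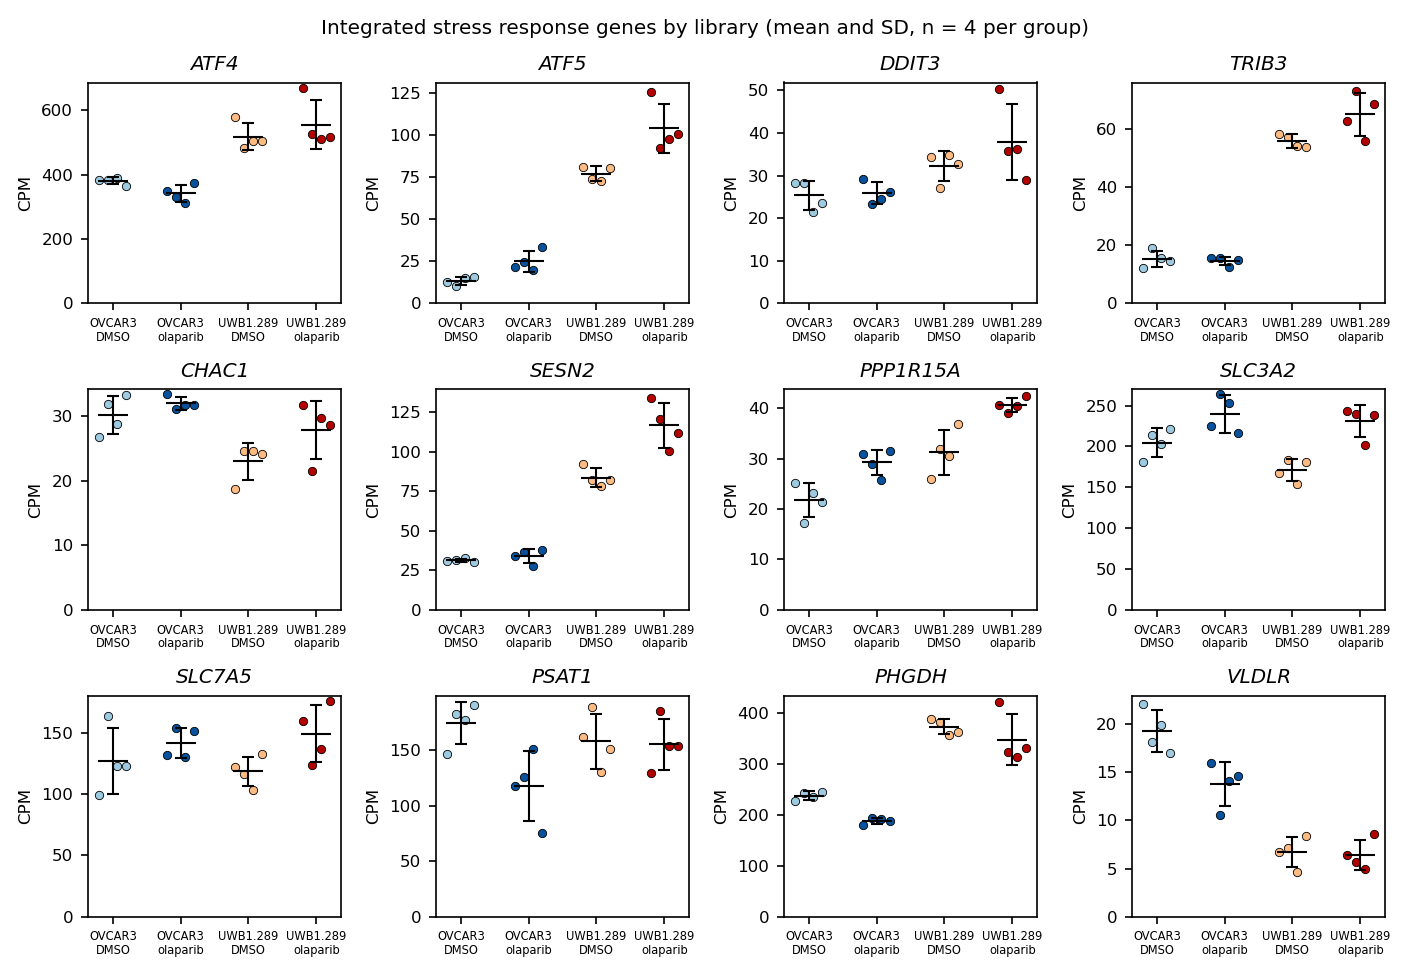
Levels of 12 members of the integrated stress response in CPM (vertical axes, each starting at 0) in the 4 groups of line and treatment. Points are libraries and bars give mean and SD (n = 4); ATF5 and PPP1R15A are higher with olaparib in both lines without overlap, while ATF5, TRIB3 and SESN2 differ more between the lines than with treatment.

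In UWB1.289, the members that passed all rose, and they were the factor gene ATF5, feedback and amino acid transport genes and HERPUD1. SESN2, ATF5, SLC3A2, HERPUD1, PPP1R15A and SLC7A5 were 1.26-fold to 1.40-fold higher with olaparib, and ATF4, XBP1 and all 12 chaperone genes did not pass. Of 38 members tested, 6 passed (15.8%), all higher, and 13.9% of all 12748 genes passed, 7.77% higher and 6.1% lower. The overall share was near the background, while the share that rose was above it and the share that fell below it. These tests were unpaired. With the replicate number as a block, the same 6 members passed. Over all 12748 genes, 1269 then passed higher and 1110 lower, against 990 and 778 without the block. The overall share of members was then below that of all genes. The median log2 fold change of the members was 0.12 against -0.0044 over all genes, and 24 of 38 were positive (63.2%, against 49.3% of all genes). None passed the 2-fold threshold, against 2.21% of all genes (1.93% higher, 0.282% lower). The counts of members that fell or went beyond 2-fold were also 0 at an unadjusted p below 0.05 (edgeR) and with DESeq2.

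SESN2, which encodes sestrin 2, an inhibitor of mTORC1 induced by several stresses, lies at chr1:28259518-28282491. It stood at 92, 81.7, 78.5 and 81.8 CPM with DMSO and at 134, 120, 100 and 112 with olaparib. All olaparib libraries were above all DMSO libraries, and the mean rose from 83.5 ± 5.88 to 117 ± 14.2 CPM (1.40-fold, 0.48, SE 0.095, adjusted p = 0.00168). ATF5 rose from 81.1, 73.7, 72.8 and 80.6 CPM to 126, 92.3, 97.9 and 101, also without overlap (1.35-fold, 0.44, SE 0.098, adjusted p = 0.00536). PPP1R15A stood at 25.9, 31.8, 30.6 and 36.8 CPM with DMSO and at 40.7, 39, 40.5 and 42.5 with olaparib (1.30-fold, 0.38, adjusted p = 0.0367). Its groups did not overlap, but the call was lost without DMSO replicate 1 (adjusted p = 0.135) or olaparib replicate 4 (adjusted p = 0.106).

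Both chains of the large neutral amino acid exchanger rose in UWB1.289. SLC3A2 stood at 167, 183, 154 and 181 CPM with DMSO and at 244, 239, 202 and 238 with olaparib, without overlap (1.35-fold, 0.43, SE 0.085, adjusted p = 0.00165). Its light chain gene SLC7A5 stood at 122, 116, 103 and 132 CPM with DMSO and at 159, 124, 137 and 176 with olaparib (1.26-fold, 0.34, adjusted p = 0.0436). These SLC7A5 groups overlapped, and the call was lost without DMSO replicate 2, DMSO replicate 3 or olaparib replicate 4 (adjusted p from 0.109 to 0.195). SLC7A1, a transporter of basic amino acids, stood at 140 ± 16.4 and 139 ± 23.3 CPM and did not pass.

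HERPUD1, an ER membrane protein of the degradation machinery, lies at chr16:56932142-56944864. It stood at 78.5, 70.8, 55.1 and 75.2 CPM with DMSO and at 80.1, 112, 83.1 and 94.5 with olaparib. The groups did not overlap (1.32-fold, 0.40, SE 0.117, adjusted p = 0.0319), and without DMSO replicate 3, the lowest library, the call was lost (0.30, adjusted p = 0.108). XBP1 stood at 82.4, 70.4, 62.1 and 68.8 CPM with DMSO and at 82, 85.2, 76.3 and 79 with olaparib, with overlap (0.19, 95% interval from -0.01 to 0.39, adjusted p = 0.256). HSPA5 stood at 830 ± 38.9 and 904 ± 42.7 CPM (0.12, adjusted p = 0.316). The chaperone HYOU1, which rose in OVCAR3, stood at 251 ± 13.2 and 268 ± 20.4 CPM (0.10, adjusted p = 0.492).

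ATF4 stood at 580, 484, 506 and 505 CPM with DMSO and at 669, 528, 510 and 517 with olaparib in UWB1.289. Replicate 1 was the highest of each group, and the difference did not pass (0.10, adjusted p = 0.541). DDIT3 (0.23, adjusted p = 0.340), TRIB3 (0.22, adjusted p = 0.176) and CHAC1 (0.28, adjusted p = 0.214) were positive without passing, and CHAC1 passed only without olaparib replicate 2 (0.38, adjusted p = 0.0613) among the libraries left out in turn. The sensor genes EIF2AK3 (-0.17, adjusted p = 0.548), ERN1 (0.32, adjusted p = 0.549) and ATF6 (-0.03, adjusted p = 0.897) did not pass. Groups without overlap were found for 6 members, all higher (15.8%), against 14.7% of all genes, 7.7% in this direction and 6.98% in the other: the 6 were ATF5, SESN2, PPP1R15A, SLC3A2, HERPUD1 and ASNS. The number of members that rose ranged from 4 to 8 when single libraries were left out. Over all genes it ranged from 738 to 1056, against 990 in the main fit.

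ASNS, which encodes asparagine synthetase and is among the best known ATF4 targets, was nearly uncounted in these libraries. It had 9, 3, 10 and 9 counts in OVCAR3 with DMSO, 5, 7, 9 and 6 with olaparib, 6, 9, 6 and 10 in UWB1.289 with DMSO and 11, 10, 10 and 14 with olaparib, 134 counts in all. The UWB1.289 groups did not overlap, yet the difference did not pass (0.65, SE 0.378, adjusted p = 0.328), and the filter on low counts removed ASNS from the OVCAR3 and line comparisons. In the annotation used here an unnamed long non-coding RNA gene on the same strand covers 49.33% of the exonic bases of ASNS and 97.8% of its last 500 bases, and the 4 pseudogene rows ASNSP1, ASNSP3, ASNSP4 and ASNSP6 together had 153 counts. The part of either in the low count was not tested, so no level of ASNS mRNA is drawn from these values. Opposite-strand genes cover all of the last 500 bases of MTHFD2, PDIA6 and HYOU1 (for MTHFD2, SLC4A5 with 11 counts against 14807; for PDIA6, ATP6V1C2 with 130 against 78575), and whether counting used strand is not given in the sources used here. MARS1, also opposite and with 16107 counts against 3133, covers 27.16% of the exonic bases of DDIT3 and 13.6% of its last 500. Opposite-strand genes also cover 54% of the last 500 bases of CALR and 20.6% of those of HSP90B1. The part of these overlaps in the values was not tested.

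**Figure D2:**
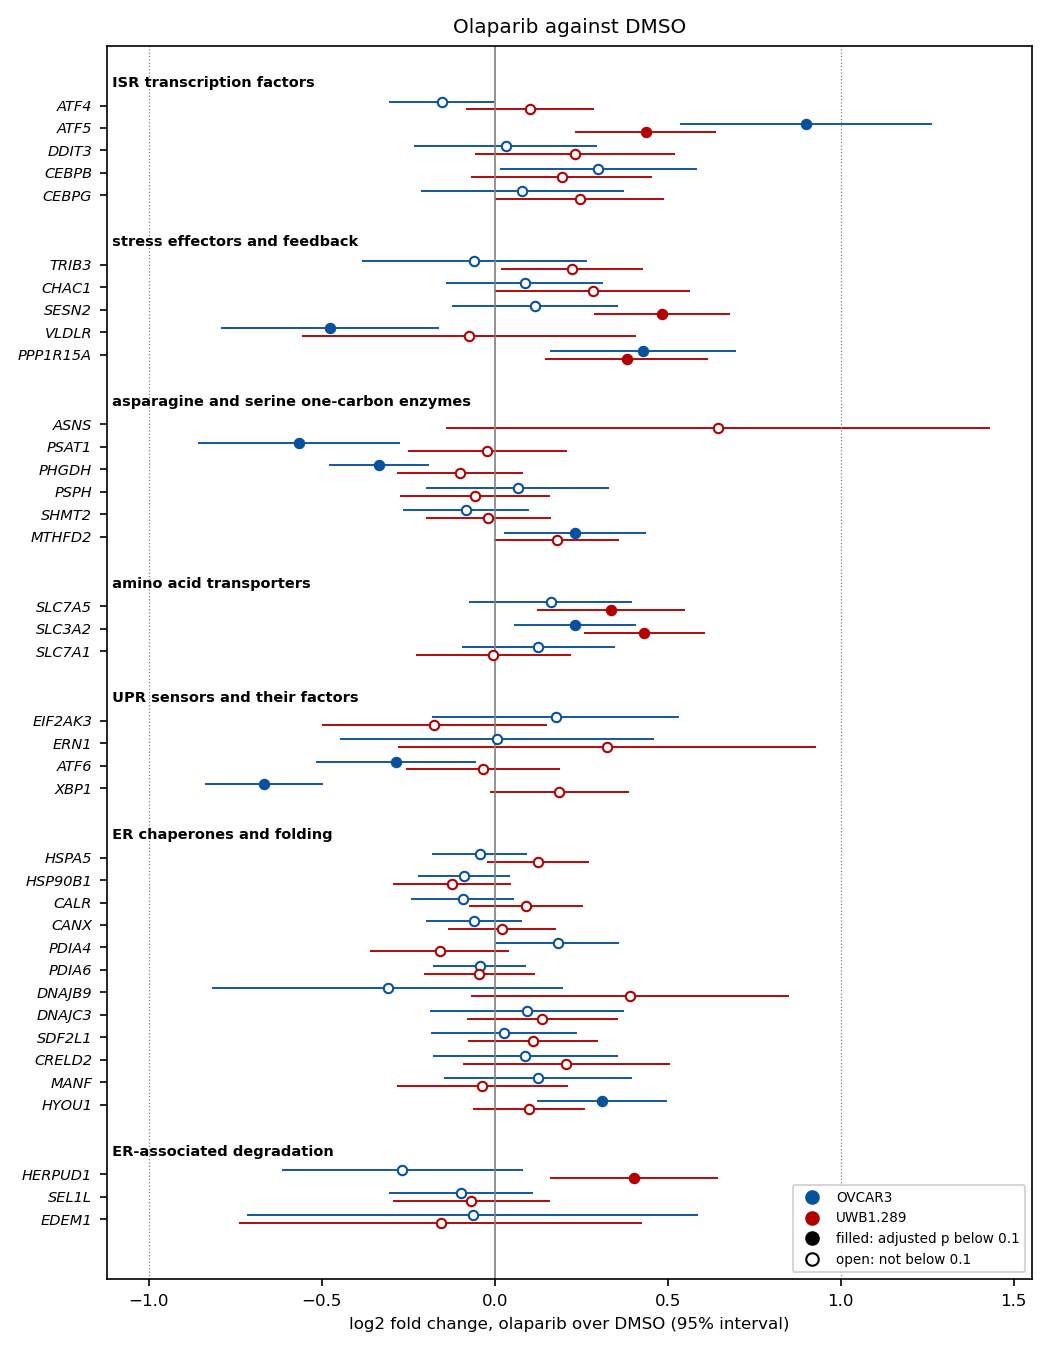
Log2 fold change of olaparib over DMSO for each member (horizontal axis, lines give 95% intervals) in OVCAR3 (blue) and UWB1.289 (red), grouped by role. Filled points passed at an adjusted p below 0.1: 10 in OVCAR3 and 6 in UWB1.289, none beyond the dotted lines at 2-fold.

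ATF5, PPP1R15A and SLC3A2 passed in both lines, each higher. The test of the difference between the lines, as the effect in UWB1.289 minus that in OVCAR3, was passed by 3 of 38 members (7.89%), all more positive in UWB1.289, against 10.9% of all 14243 genes, 5.09% in this direction and 5.83% in the other. Their share was below the background over both directions. In this direction it was above the background, but on 3 genes. When single libraries were left out, 1 to 4 members passed in this direction, and 549 to 766 of all genes. None differed beyond 2-fold, against 3.66% of all genes (2% higher, 1.66% lower), also 0 at an unadjusted p below 0.05 and with DESeq2. Of members less positive in UWB1.289, 2 had an unadjusted p below 0.05 (edgeR) and 1 passed with DESeq2. XBP1 gave the largest difference of these 3 (0.86, SE 0.125, adjusted p = 2.53e-05), with the fall in OVCAR3 beside overlapping groups in UWB1.289. HERPUD1 differed by 0.67 (SE 0.210, adjusted p = 0.0462), with OVCAR3 at 23 ± 4.07 CPM with DMSO and 19.1 ± 4.66 with olaparib (-0.27, adjusted p = 0.266) and a rise in UWB1.289. PSAT1 differed by 0.54 (SE 0.198, adjusted p = 0.0956), with UWB1.289 at 158 ± 24.6 and 155 ± 22.9 CPM (-0.02, adjusted p = 0.936).

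The XBP1 difference passed whichever library was left out. That of HERPUD1 was lost without UWB1.289 olaparib replicate 2, OVCAR3 DMSO replicate 2 or 3 or OVCAR3 olaparib replicate 2 (adjusted p from 0.10 to 0.12). The PSAT1 difference was lost with 12 of 16 libraries left out in turn (adjusted p from 0.115 to 0.185), that is, with each but UWB1.289 DMSO replicate 2, UWB1.289 olaparib replicate 1, OVCAR3 DMSO replicate 1 and OVCAR3 olaparib replicate 3. For the genes that rose in both lines the difference did not pass: ATF5 -0.46 (95% interval from -0.87 to -0.05, adjusted p = 0.171), PPP1R15A -0.05 (-0.40 to 0.31, adjusted p = 0.937) and SLC3A2 0.20 (-0.05 to 0.45, adjusted p = 0.362). SESN2, which passed in UWB1.289 and not in OVCAR3, differed by 0.37 (adjusted p = 0.129), so a difference between the lines was not shown for it. With the replicate number as a block, SESN2 passed and so did ATF5 and PDIA4 in the opposite direction (4 higher, 2 lower). Over all 14243 genes, 855 then passed higher and 1018 lower, against 725 and 830 without the block. The share of members over both directions was then above that of all genes, on few genes. ATF4 (0.26, adjusted p = 0.206), DDIT3 (0.20, 0.626), TRIB3 (0.28, 0.372), CHAC1 (0.20, 0.580), ASNS (0.91, 0.382), HSPA5 (0.17, 0.310), ATF6 (0.25, 0.386), EIF2AK3 (-0.35, 0.423) and ERN1 (0.32, 0.682), each with its adjusted p, did not pass.

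**Figure D3:**
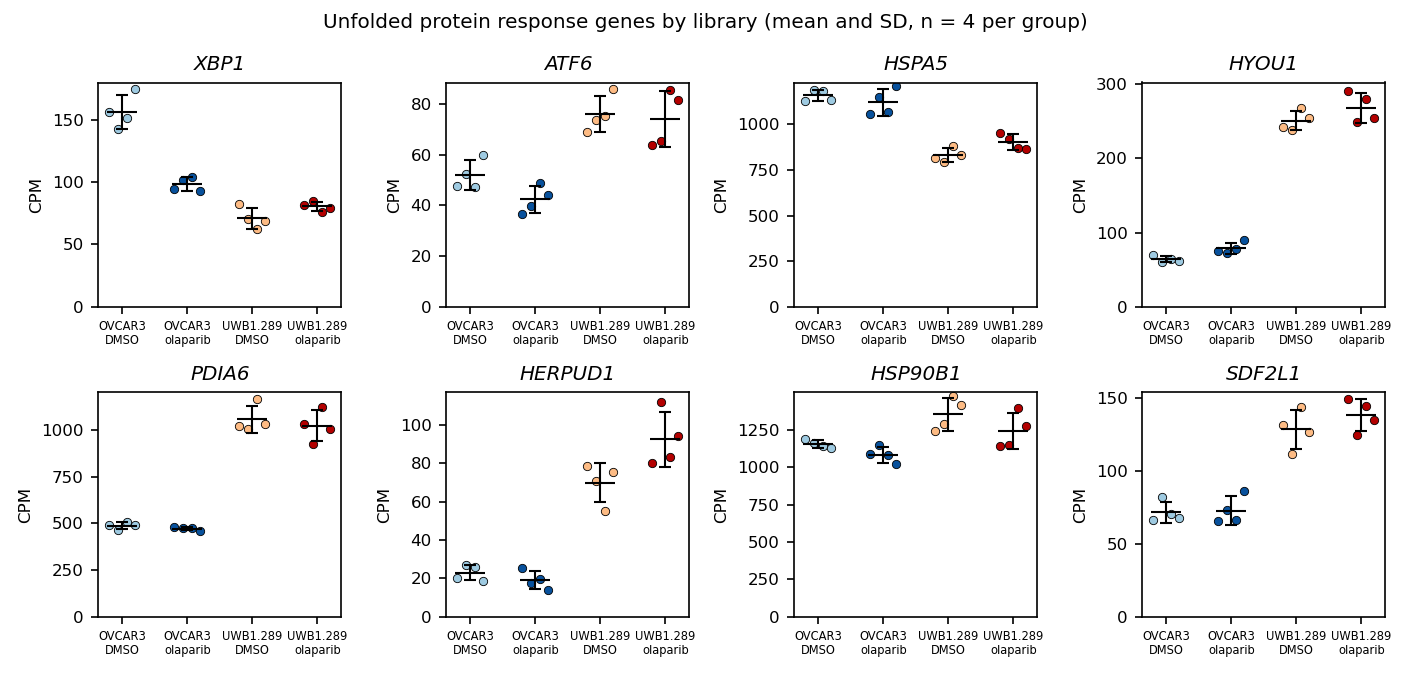
Levels of 8 members of the unfolded protein response in CPM (vertical axes, each starting at 0) in the 4 groups of line and treatment, with libraries as points and mean and SD as bars (n = 4). XBP1 falls with olaparib in OVCAR3 from 157 to 98.4 CPM, and HYOU1, PDIA6, HERPUD1 and SDF2L1 are higher in UWB1.289 than in OVCAR3 at either treatment, HSPA5 lower.

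Without drug, the 2 lines differed by up to 5.72-fold in a member, against at most 1.87-fold with olaparib within a line. In UWB1.289 with DMSO, ATF5, HYOU1, PSPH, TRIB3, HERPUD1, SESN2, SLC7A1 and PDIA6 were more than 2-fold higher than in OVCAR3 with DMSO, and VLDLR and XBP1 more than 2-fold lower. Of 37 members tested, 28 passed (75.7%), 20 higher and 8 lower, and 79.9% of all 13366 genes passed (39.8% higher, 40.1% lower). Beyond 2-fold there were 10 members (27%), against 38.4% of all genes (18.7% higher, 19.7% lower). The members thus differed between the lines no more often than other genes, with 54.1% higher and 21.6% lower. Their median was 0.29 against -0.02 over all genes. Groups did not overlap for 24 members (18 higher, 6 lower; 64.9%), against 69.4% of all genes (34.5% higher, 34.9% lower).

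ATF5 gave the largest difference of the 37 members, 13.3 ± 2.5 CPM in OVCAR3 and 77.1 ± 4.39 in UWB1.289 (5.72-fold, 2.52, SE 0.116, adjusted p = 3.59e-18). TRIB3 stood at 12, 19, 15.5 and 14.7 CPM in OVCAR3 and at 58.5, 57.3, 54.3 and 53.8 in UWB1.289 (3.65-fold, 1.87, adjusted p = 9.65e-15). SESN2 differed 2.66-fold, from 31.4 ± 1.04 to 83.5 ± 5.88 CPM (1.41, adjusted p = 1.3e-14). These 3 genes had no overlapping libraries. ATF4 (0.44, 1.36-fold, adjusted p = 9.04e-07), DDIT3 (0.35, adjusted p = 0.0111) and PPP1R15A (0.52, adjusted p = 7.43e-04) were higher by less. VLDLR was lower, at 19.3 ± 2.21 CPM in OVCAR3 and 6.74 ± 1.58 in UWB1.289 (2.84-fold lower, -1.51, adjusted p = 6.16e-09), as were CHAC1 (-0.40, adjusted p = 0.0047) and CEBPB (-0.24, adjusted p = 0.0576). ATF4 targets of the list thus differed in both directions between the lines. The CEBPB call was lost without UWB1.289 DMSO replicate 3 or OVCAR3 DMSO replicate 2 or 3 (adjusted p from 0.133 to 0.308).

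In serine and one-carbon metabolism, 4 of 5 tested enzymes were higher in UWB1.289 (39.8% of all genes were). PSPH stood at 22.9, 23.1, 17.8 and 24.2 CPM in OVCAR3 and at 95.7, 89.9, 76.3 and 76.3 in UWB1.289 (3.84-fold, 1.94, SE 0.109, adjusted p = 4.42e-16). PHGDH (0.65, 1.57-fold, adjusted p = 4.34e-10), the mitochondrial serine hydroxymethyltransferase SHMT2 (0.60, 1.52-fold, adjusted p = 3.56e-08) and MTHFD2 (0.36, adjusted p = 4.96e-04) were also higher, and PSAT1 did not pass (-0.15, adjusted p = 0.155). The transporters divided: SLC7A1 was 2.22-fold higher (62.7 ± 8.59 against 140 ± 16.4 CPM, adjusted p = 4.25e-12), SLC3A2 was lower (-0.26, adjusted p = 0.00351) and SLC7A5 did not pass (-0.10, adjusted p = 0.373).

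XBP1 was lower in UWB1.289, at 70.9 ± 8.46 CPM against 157 ± 13.4 in OVCAR3 (2.21-fold lower, -1.15, SE 0.088, adjusted p = 7.75e-13). HSPA5 was lower as well, at 830 ± 38.9 against 1159 ± 32.1 CPM (1.40-fold lower, -0.48, adjusted p = 3.03e-08), and so was CANX, which encodes the lectin chaperone calnexin (-0.31, adjusted p = 5.91e-05). Other chaperones were higher. HYOU1 stood at 69.3, 60.4, 63.7 and 62.2 CPM in OVCAR3 and at 243, 238, 268 and 255 in UWB1.289 (3.92-fold, 1.97, SE 0.077, adjusted p = 5.65e-20). PDIA6, a protein disulfide isomerase, stood at 488 ± 17 and 1057 ± 73.6 CPM (2.16-fold, 1.11, adjusted p = 1.3e-15). SDF2L1 (0.84), the co-chaperone DNAJC3 (0.83), CALR (0.29) and HSP90B1 (0.23) were also higher, with adjusted p from 6.93e-10 to 0.00208. Chaperone genes thus passed in both directions, 6 higher and 2 lower of 12 (50% and 16.7%, against 39.8% and 40.1% of all genes).

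HERPUD1 stood 3.04-fold higher in UWB1.289 (23 ± 4.07 against 69.9 ± 10.4 CPM, 1.61, adjusted p = 5.39e-13). The mannosidase-like degradation gene EDEM1 was higher at low counts (2.9 ± 0.998 against 4.39 ± 0.856 CPM, 0.60, adjusted p = 0.0692) and ERN1 lower (5.09 ± 0.442 against 3.49 ± 1.06 CPM, -0.54, adjusted p = 0.0679). Each of these 2 calls was lost with any of 4 libraries left out, for EDEM1 replicate 2 or 4 of UWB1.289 or 1 or 4 of OVCAR3 (adjusted p from 0.132 to 0.190), for ERN1 replicate 1 or 3 of either line (0.105 to 0.219). ATF6 was higher (0.55, 1.46-fold, adjusted p = 6.06e-06) and EIF2AK3 did not pass (-0.15, adjusted p = 0.386). The 9 members that did not pass lay between -0.19 and 0.11.

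Set beside the promoter elements shown above, the 3 members with ERSE-II (HYOU1, HERPUD1 and SDF2L1) were each higher in UWB1.289 with DMSO. Of the 7 members with the first form of the element, 3 were higher (PDIA6, CALR and HSP90B1), 3 lower (XBP1, HSPA5 and CANX) and 1 did not pass (CRELD2, -0.19, adjusted p = 0.222). With olaparib, XBP1 in OVCAR3 was the single gene of these 7 that passed in either line, and HYOU1 in OVCAR3 and HERPUD1 in UWB1.289 passed among the 3 with ERSE-II. Over all genes, 39.8% were higher and 40.1% lower between the lines. With olaparib, 31.5% of all genes passed in OVCAR3 and 13.9% in UWB1.289. The ERSE-II stretches were shown because their 3 genes differed between the lines, so that difference is no separate evidence. The counts for both forms of the element are of few genes, without a test.

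**Figure D4:**
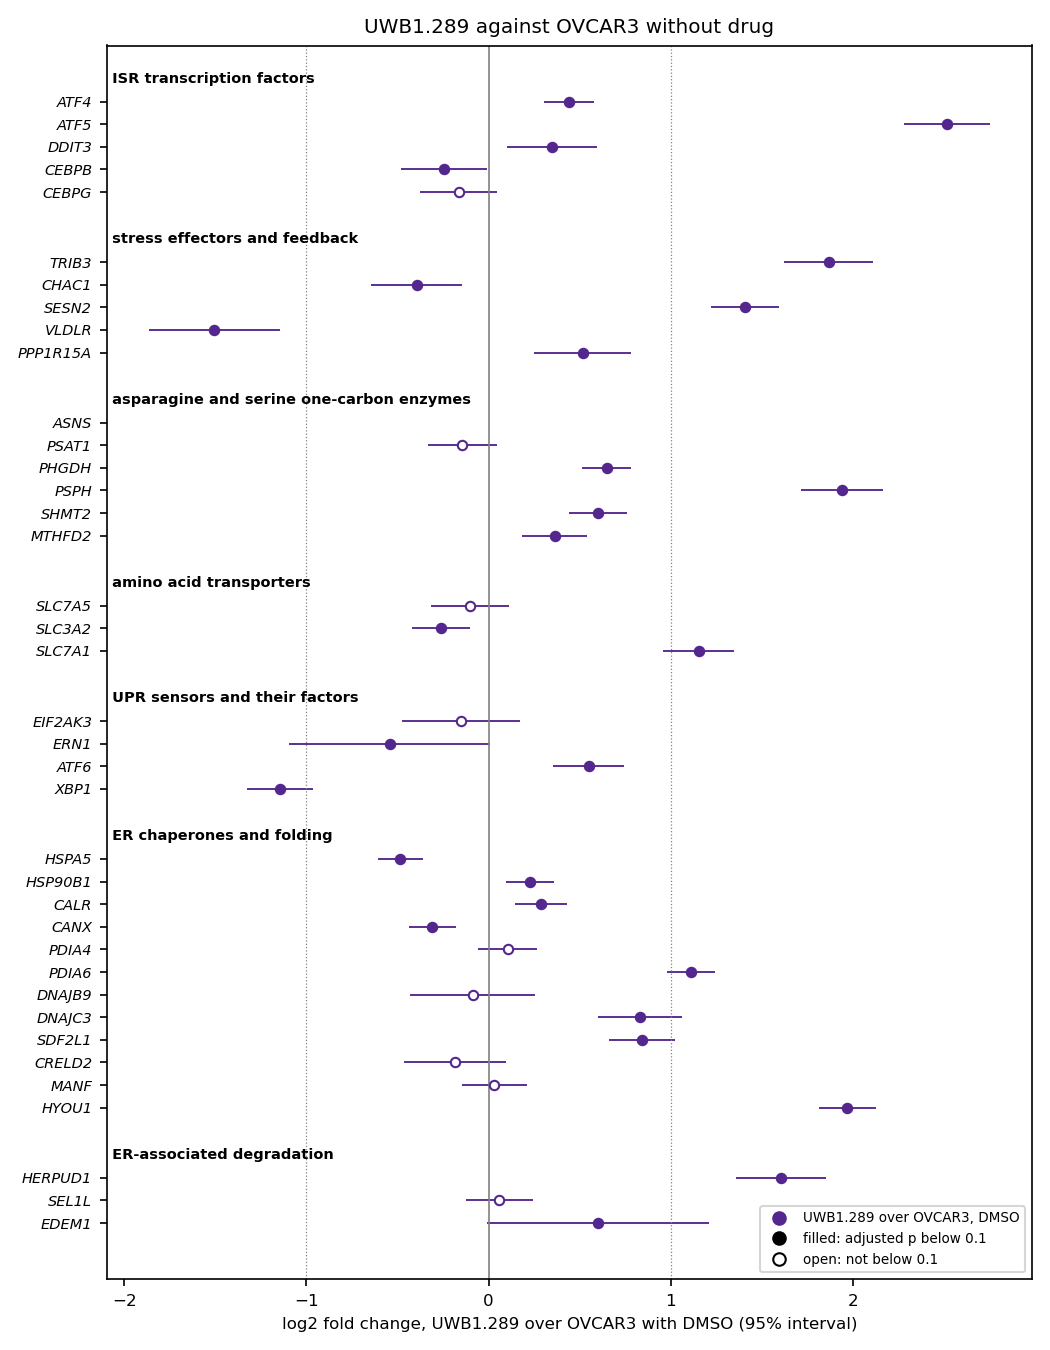
Log2 fold change of UWB1.289 over OVCAR3, DMSO libraries, for each tested member (horizontal axis, lines give 95% intervals), grouped by role; ASNS was not tested. Filled points passed at an adjusted p below 0.1 (28 of 37), and 8 members lie beyond 2-fold on the right and 2 on the left (dotted lines).

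Further genes of the same pathways were described by list. Of further ATF4 targets, 6 rose and 4 fell of 26 tested in OVCAR3 (23.1% and 15.4%, against 15.5% and 16% of all genes). Most of the list leaned down there, with 19 of 26 log2 fold changes negative and a median of -0.14, against -0.01 over all genes. In UWB1.289, 5 rose and 2 fell of 27 (18.5% and 7.41%, against 7.77% and 6.1%). Of these 27, 20 were positive, with a median of 0.16 against -0.0044 over all genes. ATF3, a stress-induced repressor, rose from 8.45 ± 1.94 to 20.6 ± 2.26 CPM in OVCAR3 (2.45-fold, adjusted p = 1.12e-05) and from 6.42 ± 1.39 to 23.5 ± 3.41 CPM in UWB1.289 (3.67-fold, adjusted p = 4.66e-08). The stress cytokine gene GDF15 rose 2.87-fold in OVCAR3 (adjusted p = 1.6e-06) and 1.72-fold in UWB1.289 (adjusted p = 6.38e-06). Both are also known as targets of other stress pathways. NIBAN1 rose in OVCAR3 (0.98, adjusted p = 1.6e-06) and GADD45A in UWB1.289 (1.14, adjusted p = 8.15e-09), and each differed between the lines (-1.05 and 0.66, adjusted p = 5.7e-06 and 0.0025). KLHL24 also differed between the lines (0.99, adjusted p = 4.45e-05), 1 of 5 in that direction and 2 in the other (18.5% and 7.41% of 27, against 5.09% and 5.83% of all genes).

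Of 14 genes for eIF2 kinases, phosphatase subunits, eIF2 and upstream factors, 1 rose and 2 fell in OVCAR3 (21.4% passed, against 31.5% of all genes) and 2 rose in UWB1.289 (14.3%, against 13.9%). EIF2AK2, which encodes PKR, an eIF2 kinase activated by double-stranded RNA and induced by interferon, rose in UWB1.289 from 262 ± 27.3 to 483 ± 41.3 CPM (1.85-fold, 0.89, adjusted p = 1.55e-07). In OVCAR3 it stood at 119 ± 8.42 and 127 ± 9.64 CPM, and the lines differed (0.78, adjusted p = 5.45e-05). OMA1, the mitochondrial protease that starts the signal to the kinase HRI, fell in OVCAR3 from 13 ± 0.441 to 6.95 ± 0.782 CPM (1.86-fold lower, adjusted p = 4.29e-04), and HRI (EIF2AK1) fell by 0.19 (adjusted p = 0.0765). The constitutive phosphatase subunit gene PPP1R15B rose in UWB1.289 (0.37, adjusted p = 0.0938), and EIF2B3 in OVCAR3 (0.27, adjusted p = 0.0858).

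Of 37 further ER folding and degradation genes, 6 rose and 3 fell in OVCAR3 (24.3% passed, against 31.5% of all genes), and 1 rose and 4 fell of 36 in UWB1.289 (13.9%, as over all genes). The oxidase gene ERO1A rose in OVCAR3 (1.55-fold, adjusted p = 8.95e-06) and differed between the lines (-0.45, adjusted p = 0.0169), and CREB3L2 fell in both (-0.62 and -0.46, adjusted p = 0.0325 and 0.0235). SELENOS, of the degradation machinery, rose in UWB1.289 (1.39-fold, adjusted p = 0.00456), and the signal peptidase subunit gene SPCS3 fell there (-0.36, adjusted p = 0.00498). Between the lines without drug, 20 further ATF4 targets were higher and 3 lower of 27 (74.1% and 11.1%, against 39.8% and 40.1% of all genes), and 13 were higher beyond 2-fold (48.1%, against 18.7%). STC2 stood at 55.1 ± 2.47 and 407 ± 15.1 CPM (7.38-fold), GDF15 was 11.18-fold and the mTORC1 inhibitor gene DDIT4 6.13-fold higher. Their median was 0.97 against -0.02 over all genes. The 37 further ER genes divided, 15 higher and 11 lower (70.3% passed, against 79.9% of all genes), with the 3 smallest adjusted p at SSR3 (1.94), DNAJC10 (1.92) and STT3A (1.80).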

How the data were processed

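RNA of OVCAR3 and UWB1.289 cells with olaparib or DMSO was profiled in 16 libraries. Single-end QuantSeq reads were trimmed by the authors (BBDuk), mapped to hg38 by STAR 2.7.9a and assigned to GENCODE genes by featureCounts 2.0.0, and the raw counts were deposited. Strand, multi-mapping and overlap settings are not given in the sources used here. All 16 columns were used, and groups were taken from the labels.

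The quasi-likelihood F test of edgeR 4.0.16 (R 4.3.3) was applied to the counts after filterByExpr and TMM, with Benjamini-Hochberg adjustment over every gene tested, each comparison on its own libraries and the difference between the lines on all 16; the test was checked on simulated data. SE was the log2 fold change over the square root of F. A call beyond 2-fold also needed a mean normalised count above 10. Log2 CPM used a prior count of 2. Passing members and ATF4, DDIT3, TRIB3, CHAC1, ASNS, XBP1, HSPA5, ATF6, EIF2AK3 and ERN1 were named in each comparison, and up to 3 genes of each further list, those with the smallest adjusted p; other genes, such as MANF and DNAJB9, were named after their values were seen. Members and lists were chosen with earlier results of these data known.

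None of 24 replicate pairs was identical. The chi-square per gene was 11.7, 8.43 and 13 for the pairs of OVCAR3 olaparib replicate 4 with replicates 1, 2 and 3. The other OVCAR3 pairs lay from 3.03 to 5.83 and those of UWB1.289 from 3.17 to 8.38. That library thus lay apart from its group over the genes of the table, not in the members alone. Same-numbered UWB1.289 libraries correlated in their deviations from group means over 9540 genes (r from 0.133 to 0.224). Its olaparib replicate 2 nevertheless correlated best with DMSO replicate 1. Same numbers were taken as pairs only in the fit with a replicate block, and the main tests of every comparison were unpaired. Numbers match the marks E1 to E4 in the library descriptions; the treatment was done 4 times, but what E marks is not stated. Alternatives were DESeq2 1.42.0, its size factors, no filter, a replicate block, a fit of all libraries, an adjusted p of 0.05 and leaving out each library. Coordinates come from GENCODE on hg38, promoters from RefSeq (GRCh38.p14).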

Additional observations from a re-analysis of the deposited data

Results flagged for a closer look

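In 7 of 152 groups of 4 libraries (38 members in 4 groups), 1 library lay apart from the other 3 by a gap that took most of the range of the group (above Dixon's critical value for 4 values). Chance gives this in about 5% of groups. Levels here are log2 CPM. ATF4 stood at 9.39 in UWB1.289 olaparib replicate 1, against 8.99 to 9.05 in the other libraries. CHAC1 stood at 4.26 in UWB1.289 DMSO replicate 1 (others 4.61 to 4.64). SLC3A2 was low in UWB1.289 olaparib replicate 3, at 7.66 (others 7.90 to 7.93), and above each DMSO library there. PDIA6 was high in UWB1.289 DMSO replicate 3, at 10.19 (others 9.98 to 10.01). MANF was low in OVCAR3 olaparib replicate 4, at 6.61 (others 7.31 to 7.38). ERN1, with 17 counts, stood at 1.64 in UWB1.289 olaparib replicate 1 (others 2.34 to 2.45), and ASNS, with 3 counts, at -0.27 in OVCAR3 DMSO replicate 2 (others 0.67 to 0.84).

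The effect of olaparib differed between the lines for 3 members by a test of the difference itself (edgeR, UWB1.289 minus OVCAR3, log2): XBP1 by 0.86, HERPUD1 by 0.67 and PSAT1 by 0.54.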

How the results depend on the processing

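Of 1120 values of 74 member results under the alternatives, 1045 kept their direction and their side of the threshold, 61 lost the call, 2 gained one and 12 changed sign, these without passing. The 74 results cover members that passed the main test and the genes named in every comparison, so gains by other members are not counted. Such gains occurred for CEBPB, CEBPG, MANF and PDIA4 in OVCAR3 without olaparib replicate 4. In UWB1.289 they occurred for CEBPG, DNAJB9 and PHGDH without olaparib replicate 1. With the replicate number as a block, UWB1.289, whose same-numbered libraries deviated together, gave the same 6 genes. OVCAR3 gave 7 higher and 5 lower (CEBPB and PDIA4 added). For the difference between the lines, SESN2 was added higher and 2 members lower (ATF5 and PDIA4). No other call of a member changed with the block. Replicate numbers match the marks E1 to E4 of a treatment that was done 4 times. The deviations of same-numbered libraries correlated at 0.0344 to 0.165 in OVCAR3 and at -0.0034 to 0.0251 between the DMSO libraries of the 2 lines, so not every pair was above 0.1. At an adjusted p below 0.05, 3 members rose in OVCAR3, and 1547 of all 13031 genes. In the difference between the lines, 1 member was lower with DESeq2 (PDIA4) and 1 without the filter on low counts (ATF5). DESeq2 lost ATF6 and MTHFD2 in OVCAR3, CEBPB, ERN1 and EDEM1 between the lines, and PSAT1 for the difference. The cause was not tested.

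With each library left out in turn, members higher, lower and beyond 2-fold numbered 3 to 9, 4 to 6 and 0 to 1 in OVCAR3 (ATF5 beyond 2-fold without olaparib replicate 3), 4 to 8, 0 to 1 and 0 in UWB1.289 (PHGDH lower without olaparib replicate 1), 19 to 21, 6 to 10 and 10 between the lines, and 1 to 4, 0 to 1 and 0 for the difference, with 1 higher without UWB1.289 olaparib replicate 2, OVCAR3 DMSO replicate 2 or 3 or OVCAR3 olaparib replicate 2. In the same fits, DDIT3 in OVCAR3 ranged from -0.040 to 0.086, TRIB3 there from -0.16 to 0.055, ERN1 there from -0.043 to 0.058 and ATF6 in UWB1.289 from -0.11 to 0.035 on the log2 scale.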

Other observations

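Cytosolic aminoacyl-tRNA synthetases, many of which are ATF4 targets, were higher in UWB1.289 than in OVCAR3 without drug for 13 of 20 genes and lower for 4 (edgeR, adjusted p below 0.1; 65% and 20%, against 39.8% and 40.1% of all genes). Beyond 2-fold, 7 were higher (35%, against 18.7%). AARS1, the alanyl enzyme gene, stood at 43.5 ± 1.45 CPM in OVCAR3 and 248 ± 19.2 in UWB1.289 (SD, n = 4; 5.68-fold, adjusted p = 7.18e-22), SARS1 was 2.98-fold and KARS1 2.26-fold higher. With olaparib, 4 rose and 2 fell of 20 in OVCAR3 (30% passed, against 31.5% of all genes), among them EPRS1 (-0.27) and QARS1 (-0.26) lower and FARSA (0.27) higher on the log2 scale. In UWB1.289, 15% passed (against 13.9% of all genes): 1 rose, the interferon-induced WARS1 (1.41-fold, adjusted p = 1.41e-04), and 2 fell, FARSB (-0.34) and QARS1 (-0.23). FARSB differed between the lines (-0.40, adjusted p = 0.0598).

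Of 14 cytosolic and mitochondrial heat shock genes, 4 rose and none fell with olaparib in OVCAR3 (28.6% passed, against 31.5% of all genes), led by HSPH1 (1.28-fold, adjusted p = 0.0106), DNAJA1 (1.18-fold, adjusted p = 0.0444) and HSP90AB1 (1.13-fold, adjusted p = 0.0519). In UWB1.289, DNAJA1 rose (1.28-fold, adjusted p = 0.0122) and HSPE1 fell by 0.29 on the log2 scale (adjusted p = 0.0191), 14.3% against 13.9% of all genes. HSP90AA1 differed between the lines (-0.28, adjusted p = 0.0416). Without drug, 7 of the 14 were higher and 7 lower in UWB1.289 (50% each, against 39.8% and 40.1% of all genes), with HSPH1 2.87-fold higher.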
